A study of Mus musculus with 10 samples.

Results

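Ventricles of mice that carry a mutant alpha-tropomyosin transgene were compared with nontransgenic ventricles (NTG), taking the 2 transgenic lines, alpha-TM175 and alpha-TM180, as a single side. All 10 arrays of the series entered: 7 transgenic arrays (3 TM175 and 4 TM180) and 3 NTG arrays, so the comparison uses every sample and asks what the lines share against the controls. Each array carried ventricular total RNA hybridised to an Affymetrix 3′ expression array. In each genotype 1 array carried an extract combined from 20 hearts and the other arrays carried 1 heart each, which gives 5 individual and 2 pooled transgenic arrays against 2 individual NTG arrays and 1 NTG pool. The series concerns the first phase of hypertrophy at 2 severities, and TM175 is known as the mild model and TM180 as the severe model. The mice had no treatment, and the labels give no age, sex, strain, transgene promoter or founder number for them. The labels also do not say whether a pool contained the hearts that were measured alone.

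Tropomyosin is a coiled-coil dimer wound around sarcomeric actin. Together with the troponin complex it lets calcium switch the thin filament between blocked and open states. Point mutations in alpha-tropomyosin, the product of Tpm1, cause hypertrophic cardiomyopathy in people, a disease of thickened ventricular walls, disordered myocytes and fibrosis. A growing or strained ventricle typically returns to genes of the fetal heart, such as the slow myosin heavy chain and the natriuretic peptides, lays down matrix through its fibroblasts and relies less on fatty acid oxidation.

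The arrays read as ventricle. Of 10 cardiomyocyte markers, Myl2, Myl3, Tnni3 and Mb were brighter than 99.9% of the 22626 probe sets, while the level of Actc1 could not be settled from the deposited numbers. The summed intensity of the cardiomyocyte markers was 68415 to 75838 on the NTG arrays, 65007 to 69377 on the TM175 arrays and 62904 to 70915 on the TM180 arrays. Of 7 atrial markers 0 passed (limma; 2 higher at an unadjusted p under 0.05). Sln, Bmp10 and Myl4 differed by 0.00, 0.01 and 0.07 on the log2 scale and Stard10 by -0.28, while Nppa differed by 2.66, Myl7 by 0.81 and Dkk3 by 0.57, with Dkk3 above NTG on all transgenic arrays. The arrays had median intensities of 66.64 to 70.95, and pairwise correlations across probe sets were 0.964 to 0.995 on the log2 scale. The first principal component, with 47.4% of the variance, set the 3 pools apart from the individual hearts, and 2776 probe sets differed between extract types, so extract type was kept in the model throughout. The number of arrays limits the precision of every value below.

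Arrays that stand apart touch several results. The first TM175 heart had an Xist intensity of 987.6 and an Eif2s3y intensity of 7.23, where the other individual hearts read 99.5 to 136 and 44.7 to 60.8. Xist marks the inactive X chromosome of females and Eif2s3y is on the Y chromosome. The TM175 and TM180 pools also had high Xist, at 414.1 and 393.7, against 148.8 in the NTG pool. None of the 4 sex-linked genes differed at the threshold between transgenic and NTG arrays. The second NTG heart read 1551 for the interferon-induced GTPase Igtp, where the other NTG arrays read 198 and 193.1. Where leaving out either array changed the count of a list below, that count is given too.

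**Figure D1:**
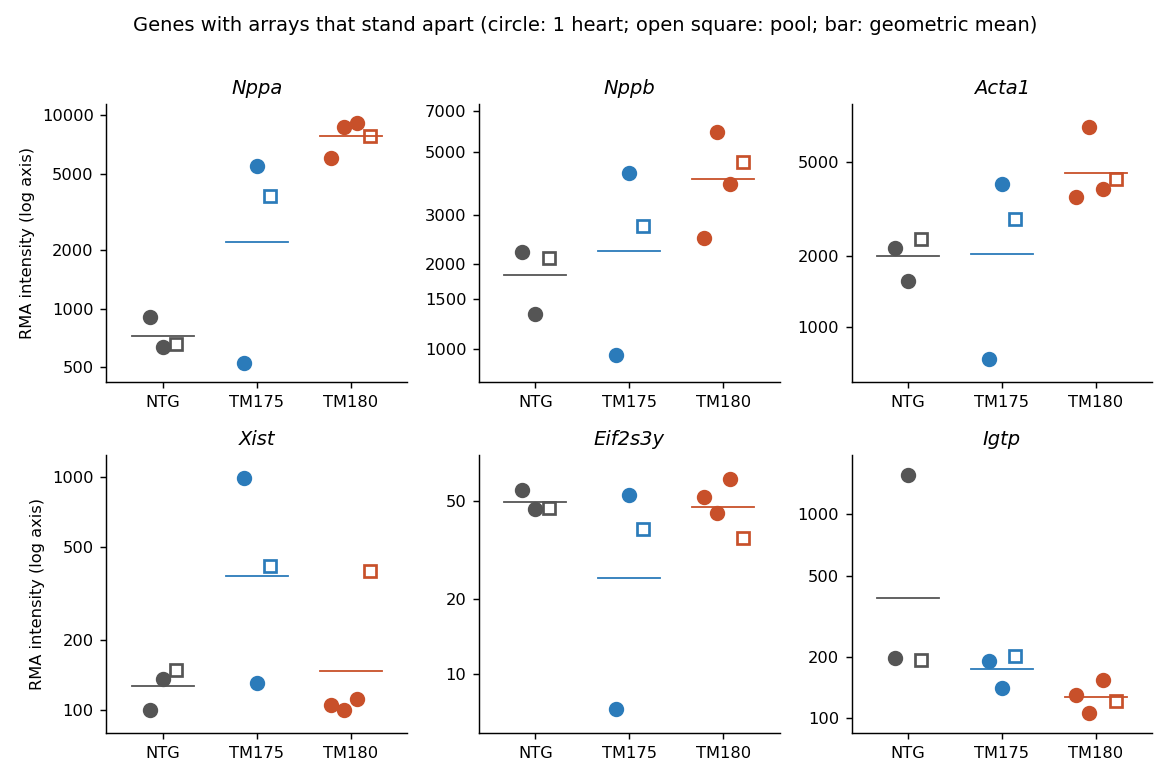
RMA intensity on a logarithmic axis of 6 genes on each of the 10 arrays, with NTG, TM175 and TM180 in columns; circles are single hearts, open squares are pools and bars are geometric means. The first TM175 heart is lowest for Nppa (521.4), Nppb, Acta1 (733.4) and Eif2s3y (7.23) and highest for Xist, and the second NTG heart is highest for Igtp (1551).

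With both lines joined, 105 of 22626 probe sets passed an adjusted p of 0.05 (limma, two-sided, Benjamini-Hochberg over all probe sets): 34 were higher in transgenic ventricle (0.15% of those tested) and 71 were lower (0.314%). They stood for 31 genes that rose and 54 that fell, and 4 of the probe sets carried no single gene symbol. At an unadjusted p under 0.05 there were 1239 higher and 1520 lower. The largest rises were those of the slow myosin heavy chain Myh7, the matrix gene Postn and the collagen genes Col1a1 and Col1a2, and the largest falls those of the class II genes H2-Aa and H2-Ab1, the G-protein regulator Rgs2 and the carboxylesterase Ces1d. Changes were mostly modest: 10 rises and 12 falls reached 2-fold, and 25 and 60 reached 1.5-fold. For 97 of the 105 the 7 transgenic intensities did not overlap the 3 NTG intensities. Over all probe sets 1.78% lay wholly above and 2.21% wholly below the NTG arrays. Within hearts and within pools, a looser criterion, all 105 were without overlap. The share of all probe sets that meet this looser criterion is not given here. The 105 were also chosen by a fit over these same arrays, so this count is no separate result. Because the lines were joined, a difference between them counted as spread, so a gene moved in 1 line alone carries a larger error in this fit.

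Of the 105, 67.6% were lower, a share that moved with the scaling: renewed quantile normalization called 204 with 55.9% lower, and centring each array on its median called 70 with 82.9% lower. The first of these kept 99 of the 105 and the second 69. The count also leaned on single arrays, from 9 without the first NTG heart and 10 without the NTG pool to 229 without the first TM175 heart.

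Myh7, Postn, Rgs2, H2-Aa and Hccs passed in each of the 10 fits that left out 1 array, and the other called genes picked by the naming rule passed in 1 to 9 of them. Of the 43 called genes picked by that rule 27 had another probe set with a settled level, and for 8 of them another one was called too. For 6 genes (Ces1d, Col1a2, Decr1, Lpar1, Lyst and Pkia) a brighter probe set did not pass; all 43 other probe sets had the direction of the called one. With individual hearts alone Myh7 and Hccs still passed, and Postn, Rgs2 and H2-Aa each had an adjusted p of 0.0568 on these probe sets. Their 200 bases upstream of the transcription start are shown so that the regulatory sequence in front of the changed genes can be read (RefSeq, GRCm38.p6, the strand of the gene, 5′ to 3′; Myh7 and Postn have 2 starts in the table and 1 was used). Capitals mark a CCAAT motif on either strand.
Myh7 (chr14:54994627-54994826, minus strand): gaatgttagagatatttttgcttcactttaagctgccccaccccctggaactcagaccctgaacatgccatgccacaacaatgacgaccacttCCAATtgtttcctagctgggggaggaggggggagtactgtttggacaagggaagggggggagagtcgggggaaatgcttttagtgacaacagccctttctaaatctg
Postn (chr3:54359067-54359266, plus strand): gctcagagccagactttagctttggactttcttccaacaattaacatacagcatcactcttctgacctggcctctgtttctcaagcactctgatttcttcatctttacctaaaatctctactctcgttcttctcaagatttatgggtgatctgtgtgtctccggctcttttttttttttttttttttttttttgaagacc
Rgs2 (chr1:144004150-144004349, minus strand): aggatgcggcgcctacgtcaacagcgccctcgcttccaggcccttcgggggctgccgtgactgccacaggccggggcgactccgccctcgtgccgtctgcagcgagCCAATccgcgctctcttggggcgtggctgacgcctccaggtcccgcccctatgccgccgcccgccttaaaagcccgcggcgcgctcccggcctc
H2-Aa (chr17:34287824-34288023, minus strand): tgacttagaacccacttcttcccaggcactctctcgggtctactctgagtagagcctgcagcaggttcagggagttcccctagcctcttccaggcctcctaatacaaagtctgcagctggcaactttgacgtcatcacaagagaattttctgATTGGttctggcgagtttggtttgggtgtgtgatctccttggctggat
Hccs (chrX:169320373-169320572, minus strand): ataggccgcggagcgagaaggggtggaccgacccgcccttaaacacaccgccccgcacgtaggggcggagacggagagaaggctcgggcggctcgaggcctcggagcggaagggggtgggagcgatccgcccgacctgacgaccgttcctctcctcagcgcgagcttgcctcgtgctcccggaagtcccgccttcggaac
Both strands were searched for the TATA box as TATAAA, for CCAAT, for the MCAT element of muscle genes as CATTCC and for an E box as CACGTG. The motif CCAAT stood 107 to 103 bases before the start of Myh7 and 94 to 90 before that of Rgs2, and on the opposite strand 48 to 44 before that of H2-Aa. The other motifs had no match in these 5 windows. Of 27025 mouse promoters of the same length, 30.0% held CCAAT, 10.6% the TATA box, 10.1% the MCAT element and 5.28% the E box.

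Myh7 encodes the slow beta-myosin heavy chain, which the mouse ventricle uses before birth and replaces with the fast alpha chain, Myh6, in the adult. It showed the largest rise of the comparison. The NTG hearts read 341.6 and 349.8 and the NTG pool 325.4. The TM175 hearts read 6319 and 2529 and their pool 5063, and the TM180 hearts read 2577, 3922 and 3086 and their pool 3813. Every transgenic array thus lay far above every NTG array, and the lines overlapped each other. The mean intensity was 3901 ± 1385 (SD, n = 7) against 338.9 ± 12.4 (SD, n = 3), and the fitted rise was 3.46 ± 0.24 (SE) on the log2 scale, or 11.02-fold (95% interval 7.74 to 15.7, adjusted p 4.24e-05). The rise was 3.67 in TM175 and 3.30 in TM180, both set against the same 3 NTG arrays. Leaving out each array in turn gave 3.32 to 3.54. Myh6 averaged 7558 ± 450.3 (SD, n = 7) in transgenic and 8375 ± 737.8 (SD, n = 3) in NTG ventricle, a difference of -0.15 ± 0.08 on the log2 scale that did not pass (adjusted p 0.512).

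Tpm1, the gene whose mutant form the mice carry, rose on its brightest probe set. The NTG arrays read 12400, 13205 and 11241, the TM175 arrays 16517, 16167 and 15434, and the TM180 arrays 16828, 16460, 17346 and 15587. All transgenic arrays were above all NTG arrays, the lines overlapped, and the highest of these values was also the highest in the whole table. The rise was 0.41 ± 0.08 on the log2 scale, 1.33-fold (95% interval 1.184 to 1.486, adjusted p 0.0385), with 0.39 in TM175 and 0.42 in TM180. It passed in 1 of the 10 fits that left out an array, and under renewed quantile normalization it was 0.30 with an adjusted p of 0.0565. A pair of dimmer Tpm1 probe sets differed by 0.26 ± 0.16 and 0.12 ± 0.19 and did not pass. Which parts of the transgene's message these probes match is not given in the sources used here, so transgene and endogenous message cannot be told apart.

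**Figure D2:**
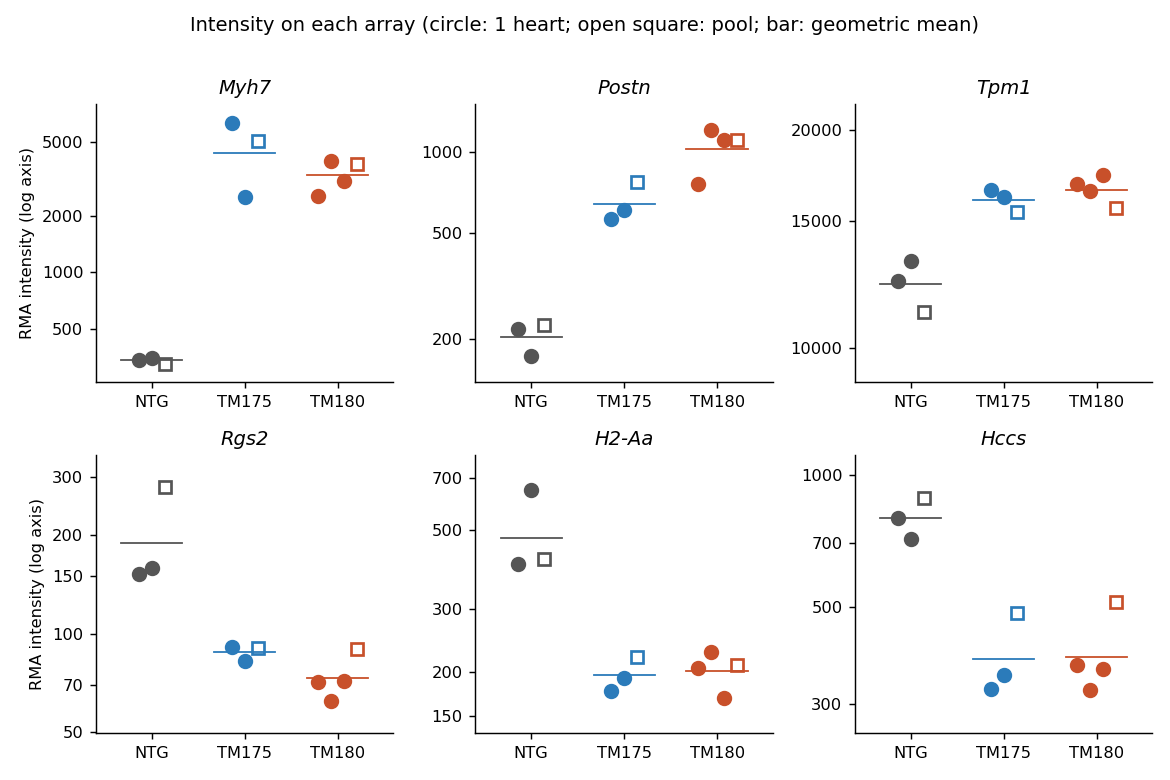
RMA intensity on a logarithmic axis of Myh7, Postn, Tpm1, Rgs2, H2-Aa and Hccs on each of the 10 arrays, by genotype; circles are single hearts, open squares pools of 20 hearts and bars geometric means. In every panel all 7 transgenic arrays lie on 1 side of all 3 NTG arrays, from an 11.02-fold rise of Myh7 to a 1.33-fold rise of Tpm1 and falls of Rgs2, H2-Aa and Hccs to under 0.49 of the NTG level.

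The other fetal and hypertrophy genes were less uniform across the 7 transgenic arrays. Of 18 measured genes of this list Myh7 alone passed, and the list's median difference was 0.44 on the log2 scale against 0.02 over the 12393 genes measured. Over those genes, taking 1 probe set for each, 25 (0.202%) were called higher and 43 (0.347%) lower. Nppa, which encodes atrial natriuretic peptide, read 906.1, 635.4 and 654.7 in NTG. The TM180 arrays read 5991, 8703, 9127 and 7788, the second TM175 heart 5478 and the TM175 pool 3822, but the first TM175 heart read 521.4, below every control. The joined difference was 2.66 ± 0.69 (adjusted p 0.108), and it was 3.18 with an adjusted p of 4.52e-05 without that heart. With the mean of the lines as contrast it was 2.54 (adjusted p 0.0351), and with arrays weighted by their spread 3.13 (adjusted p 0.00288). The same heart was lowest for Acta1, skeletal alpha-actin, at 733.4 against 1562 to 2356 in NTG, and lowest for Nppb, brain natriuretic peptide, at 952.3. It had the highest Myh7 of all arrays. Acta1 differed by 0.69 ± 0.49 and Nppb by 0.78 ± 0.42, and neither passed; without that heart Acta1 reached 1.03 (adjusted p 0.04999) and the list had 4 genes called higher. The summed atrial markers, Nppa included, ran from 1161 to 1621 in NTG, 1112 to 6035 in TM175 and 6605 to 10149 in TM180. The atrial light chain Myl7 read 37.2 to 150.9 in NTG and 34.2 to 454.7 in transgenic arrays, and the part of atrial tissue in the Nppa result was not tested.

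Within the sarcomere and Z disc list, 1 of 27 measured genes rose, Tpm1, and 1 fell, Tmod4; without the second NTG heart 0 rose. Tmod4 is a tropomodulin, a cap of the slow-growing end of the actin filament, and is mainly known from skeletal muscle. It read 126.5, 93.02 and 89.05 in NTG, 46.29, 48.53 and 58.52 in TM175 and 57.12, 48.03, 55.06 and 40.55 in TM180. The groups did not overlap, and Tmod4 fell to 0.492 of the NTG level (95% interval 0.404 to 0.60, adjusted p 0.00826). The list's median was -0.02, and Myl2, Actn2, Ttn and Mybpc3 differed by -0.02, 0.00, 0.03 and 0.15.

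Among the lists, fibrillar and matricellular matrix held the most called rises. Postn encodes periostin, a matricellular protein that activated cardiac fibroblasts secrete. It read 217.6, 172.9 and 226.7 in NTG, 562.2, 607.3 and 772.1 in TM175 and 759.5, 1207, 1110 and 1108 in TM180. Every transgenic array lay above every control, and 3 of the 4 TM180 arrays lay above all TM175 arrays. Postn rose 4.14-fold (95% interval 2.97 to 5.77, adjusted p 0.00253), by 1.65 on the log2 scale in TM175 and 2.36 in TM180. It stayed between 1.95 and 2.14 when each array was left out.

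The chains of type I collagen, the main fibrillar collagen of the heart, rose with it. Col1a1 read 266.4, 203.4 and 349.0 in NTG, 370.1, 537.0 and 699.6 in TM175, and 767.8, 1289, 873.3 and 1079 in TM180. It increased 2.84-fold (95% interval 1.83 to 4.41, adjusted p 0.0456), and Col1a2 increased 2.71-fold on its best probe set (1.83 to 4.01, adjusted p 0.0338). The lowest transgenic array of Col1a1 was only just above the highest NTG array, and it passed in 2 of the 10 fits that left out an array. The brighter probe set of Col1a2 differed by 0.96 ± 0.20 with an adjusted p of 0.0564.

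Mfap5 and Mfap4, microfibril proteins that scaffold elastic fibres, also rose. Mfap5 rose from 199.2, 146.6 and 219.0 in NTG to 263.3, 342.4 and 419.3 in TM175 and 427.2, 641.2, 530.3 and 523.3 in TM180. Its fitted rise was 2.35-fold (95% interval 1.69 to 3.28, adjusted p 0.030), and that of Mfap4 was 2.09-fold (1.57 to 2.77, adjusted p 0.029). Fibronectin, Fn1, an adhesive glycoprotein of the early matrix, rose 1.63-fold (1.37 to 1.95, adjusted p 0.0271). Sparc, a collagen-binding matricellular protein, rose 1.67-fold (adjusted p 0.0422), while another of its probe sets differed by 0.54 and did not pass (adjusted p 0.189). Biglycan, Bgn, a small leucine-rich proteoglycan, rose on each of its 3 probe sets, by 0.82, 0.88 and 1.08 on the log2 scale. The secreted glycoprotein Fstl1 rose 2.23-fold, from a mean of 222.0 ± 38.1 (SD, n = 3) to 502.7 ± 118.8 (SD, n = 7), with an adjusted p of 0.0271. Of the 10 fits that left out 1 array, Fn1 and Fstl1 each passed in 5, Mfap4 and Mfap5 each in 4, Sparc in 3 and Bgn in 1.

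Other called rises were Pi16 (2.17-fold), a surface protein of resting fibroblasts, and Dpysl3 (2.00-fold), a cytoskeletal collapsin response mediator. Lpar1, a receptor for lysophosphatidic acid, rose 1.66-fold, the metallothionein Mt2 1.66-fold, the lysosomal trafficking regulator Lyst 1.64-fold and the secreted Olfml3 1.64-fold. For Lpar1 a brighter probe set differed by 0.36 (adjusted p 0.156) and a dimmer one by 0.08, and neither passed. For Lyst the brightest probe set differed by 0.09 (adjusted p 0.884) and another by 0.06. The growth factor Igf1 (1.58-fold) and the cell cycle regulator Ccnd2 (1.94-fold) were called although both TM175 hearts lay below the NTG pool for each. The intermediate filament gene Vim rose 1.45-fold (adjusted p 0.0289). Other probe sets of Dpysl3 differed by 0.40 and 0.12, of Pi16 by 0.36 and of Igf1 by 0.33 and 0.20. Those of Ccnd2 differed by 0.01 to 0.99 and those of Vim by 0.49 and 0.50, and none of these passed. The remaining rises included Fbln1, Col16a1, Srpx, Fibin, Igfbp4, Fstl3, Cald1, Fcrls, Naalad2, Tceal9 and Ints6, at 0.44 to 0.66 on the log2 scale.

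Counted over whole lists, 7 of 30 fibrillar and matricellular matrix genes were called higher and 0 lower, beside 0.202% and 0.347% of all genes. The median member was 0.68 higher, and 29 of 30 were above 0. Over all 12393 genes 7024 were above 0 and 759 were higher at an unadjusted p under 0.05 (limma). Col3a1, Ltbp2 and the representative probe set of Col1a2 differed by 1.13, 1.30 and 0.96 with adjusted p of 0.0619, 0.0564 and 0.0564. Among 21 basement membrane genes 0 passed in either direction, though 15 were higher at an unadjusted p under 0.05 (limma), with a median of 0.37. Of 22 proteoglycan, protease and TIMP genes Bgn passed, with a median of 0.31. These counts moved with 1 array: without the first TM175 heart 15 fibrillar, 4 basement membrane and 4 proteoglycan and protease genes passed, and without the second NTG heart 1, 0 and 0 did. The medians then were 0.74, 0.41 and 0.34, and 0.61, 0.50 and 0.33.

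Of 12 fibroblast markers 3 were called higher, Col1a1, Pi16 and Vim, and the median was 0.23. Without the first TM175 heart 4 were called and without the second NTG heart 0 were, with medians of 0.26 and 0.20; Pdgfra, Dcn and Tcf21 differed by 0.19, 0.22 and 0.24 and did not pass. The summed intensity of the list was 5446 to 7469 in NTG, 7261 to 10523 in TM175 and 8438 to 11818 in TM180. More fibroblasts and more RNA per fibroblast cannot be told apart in whole ventricle. Endothelial markers had a median of 0.17 and 0 of 13 passed (limma; 6 at an unadjusted p under 0.05), and of 11 smooth muscle and pericyte markers 1 was lower, Abcc9, and 0 without the second NTG heart. In the TGF-beta list, whose ligands drive matrix synthesis, 0 of 28 passed (5 higher at an unadjusted p under 0.05), with Tgfb2 at 0.88 and Tgfb3 at 0.68. Another Tgfb2 probe set, not used for the list, differed by 1.38 and did not pass (adjusted p 0.163). Without the first TM175 heart 3 of the 28 were called higher, and the median went from 0.06 to 0.12.

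**Figure D3:**
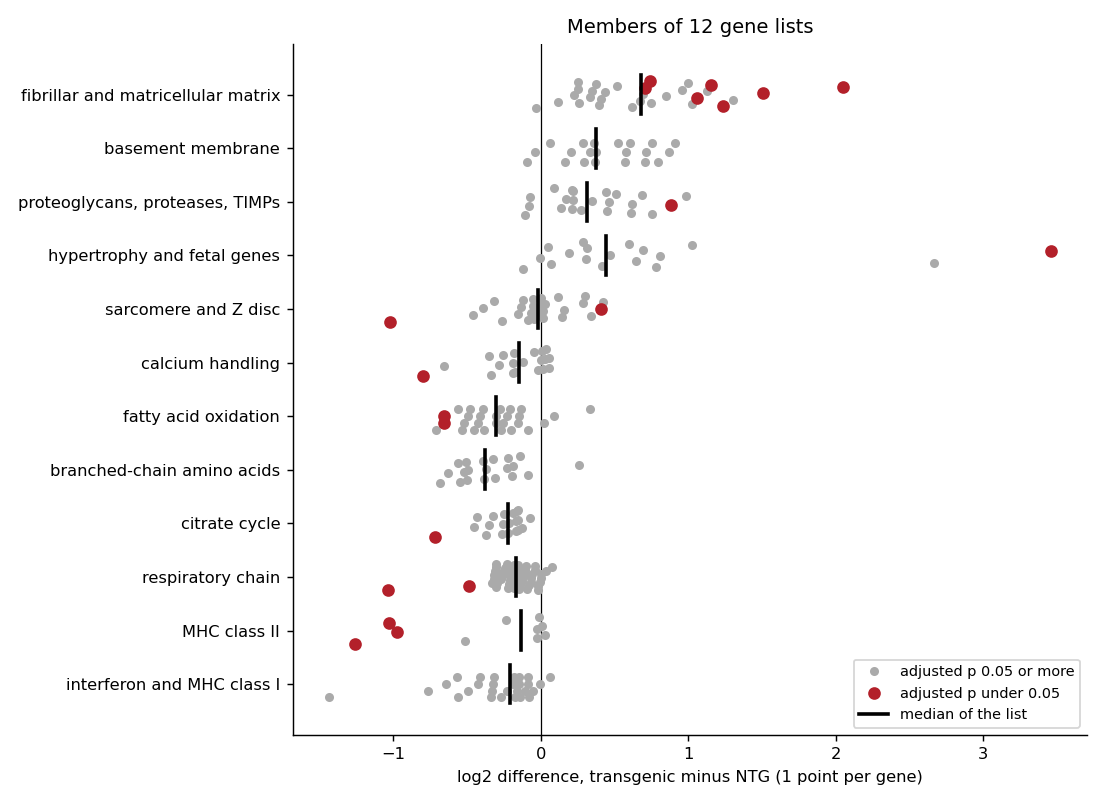
Log2 difference, transgenic minus NTG, of each measured gene in 12 gene lists, 1 point per gene; red points passed an adjusted p of 0.05 and black bars are list medians. The matrix lists lie to the right, with a median of 0.68 for fibrillar and matricellular genes, and the fatty acid oxidation and branched-chain amino acid lists lie to the left, with medians of -0.31 and -0.38.

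Rgs2 headed the falls together with a class II gene. Its product speeds GTP hydrolysis by the Gq alpha subunit and so shortens signalling from hypertrophic hormone receptors such as those of angiotensin II and endothelin. It read 152.1 and 158.6 in the NTG hearts and 279.8 in the NTG pool. The TM175 arrays read 91.2, 82.8 and 90.6 and the TM180 arrays 71.1, 62.3, 71.7 and 90.0. The groups did not overlap on this probe set, which was picked among those without overlap. On it Rgs2 fell to 0.425 of the NTG level (95% interval 0.348 to 0.519, adjusted p 0.00253). The fall was -1.10 in TM175 and -1.33 in TM180. Among hearts alone it was -1.05 and among pools alone -1.63, so the high NTG pool raised the estimate. A second, brighter Rgs2 probe set fell by 1.07 on the log2 scale (adjusted p 0.0133), but there the groups overlapped. On it the TM175 and TM180 pools read 207.2 and 219.1, above the NTG hearts at 185.7 and 185.4, and the NTG pool read 599.1.

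Other signalling and channel genes fell with it. Pkia encodes an inhibitor of protein kinase A and dropped to 0.511 of the NTG level (95% interval 0.418 to 0.625, adjusted p 0.0133), from 66.45, 58.55 and 97.99 in NTG to 31.51 to 49.54 in transgenic arrays. A brighter Pkia probe set differed by -0.46 and did not pass (adjusted p 0.108). Cacnb2, an auxiliary subunit of the L-type calcium channel, fell to 0.574 (adjusted p 0.0437), with a pooled transgenic array above both NTG hearts. Abcc9, the sulfonylurea receptor of the potassium channel that ATP closes, fell to 0.631 (adjusted p 0.044). Of 20 calcium handling genes Cacnb2 was the 1 that passed: the calcium pump Atp2a2 differed by -0.28 ± 0.08 (adjusted p 0.16), with all transgenic arrays below all NTG arrays, and its inhibitor Pln by -0.05 ± 0.09 (adjusted p 0.906). Kcnip2 and Kcnd2, subunits of the transient outward potassium channel, differed by -0.93 and -0.73 and did not pass.

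Of 10 measured genes of MHC class II, whose products professional antigen-presenting cells display to helper T cells, 3 fell: H2-Aa, H2-Ab1 and Cd74. H2-Aa read 402.1, 648.5 and 415.7 in NTG, 176.8, 192.5 and 220.2 in TM175 and 204.6, 227.7, 168.6 and 209.6 in TM180. The brightest transgenic array lay well below the dimmest NTG array, and the lines overlapped. It fell to 0.417 of the NTG level (95% interval 0.335 to 0.521, adjusted p 0.00511), and a second probe set fell by 1.64 on the log2 scale. H2-Ab1, the partner chain, fell to 0.509 (0.409 to 0.634, adjusted p 0.0172), and Cd74, the invariant chain that guides class II molecules through the cell, to 0.49 (0.365 to 0.659, adjusted p 0.0426). Cd74 had an adjusted p of 0.0576 in TM175 alone (limma). Other genes called in the joined fit also missed the threshold in TM175 alone. Among them were Col1a1 (0.0507), Tpm1 (0.0513), Sparc (0.0523), Bgn (0.0572), Mt2 (0.0704) and Acaa2 (0.0734). The list's median was -0.13, with 2 of the 10 genes above 0. H2-Eb1 differed by -0.03 and the class II transactivator Ciita by -0.02.

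The second NTG heart was the highest of all arrays for H2-Aa and Cd74 and for many interferon genes. Without it 1 of the 10 class II genes passed rather than 3, and H2-Aa was still 1.01 lower on the log2 scale. Of 13 macrophage markers 0 passed in limma (0 at an unadjusted p under 0.05), their median was 0.02, and their summed intensity was 3097 to 3645 in NTG, 2460 to 3628 in TM175 and 3465 to 3839 in TM180. Of 28 interferon and MHC class I genes 0 passed (6 lower at an unadjusted p under 0.05). Over all 10 arrays 27 of them were below 0 with a median of -0.21, and without the second NTG heart 16 were below 0 with a median of -0.02.

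Hccs encodes holocytochrome c synthase, the mitochondrial enzyme that attaches heme to cytochrome c, and is X-linked. Its fall had the smallest p-value after that of Myh7. It read 799.4 and 715.7 in the NTG hearts and 886.9 in the NTG pool. The TM175 arrays read 324.9, 348.9 and 483.8 and the TM180 arrays 367.3, 321.9, 360.8 and 513.5, with the pool highest in each genotype. The groups were well separated and the lines overlapped. Hccs fell to 0.487 of the NTG level (95% interval 0.424 to 0.559, adjusted p 0.00052), by -1.07 on the log2 scale in TM175 and -1.02 in TM180. A second Hccs probe set fell by 0.90 (adjusted p 0.00511), while cytochrome c itself, Cycs, differed by -0.25 and did not pass. The Y-linked Uty also lay below NTG on all 7 transgenic arrays, by -0.35 on the log2 scale (adjusted p 0.101). The first TM175 heart, with an Eif2s3y intensity of 7.23, still read 40.0 for Uty. That lay within the 32.7 to 45.7 of the transgenic arrays, so this probe set did not follow Eif2s3y. The part of sex in the Hccs fall was not tested.

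Several enzymes of mitochondrial fuel use were among the other falls. Etfdh, which passes electrons from fatty acid and amino acid oxidation to ubiquinone, read 1603, 1347 and 1752 in NTG and 884.0 to 1144 in transgenic arrays. It fell to 0.635 of the NTG level (95% interval 0.544 to 0.741, adjusted p 0.0206). Acaa2, the thiolase of the last step of beta-oxidation, fell to 0.633 (adjusted p 0.0498), and Decr1, which handles unsaturated fatty acids, to 0.598 (adjusted p 0.0206) on 1 of its probe sets. Etfbkmt, a methyltransferase acting on the electron carrier ETF, fell to 0.52 (adjusted p 0.0224). Dld, the lipoamide dehydrogenase shared by the pyruvate, oxoglutarate and branched-chain complexes, fell to 0.608 (adjusted p 0.028), and Ndufs4, a subunit of respiratory complex I, to 0.714 (adjusted p 0.0416).

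By list, 2 of 28 fatty acid oxidation genes fell and 0 rose, with 25 of 28 below 0 and a median of -0.31; 4 fell without the first TM175 heart and 1 without the second NTG heart. Of 20 citrate cycle genes Dld fell, and all 20 were below 0 with a median of -0.22. Of 20 branched-chain amino acid genes 0 passed (limma; 14 lower at an unadjusted p under 0.05), with the lowest median of the metabolic lists, -0.38. Aldh6a1 and Dbt of this list differed by -0.69 and -0.63, with adjusted p of 0.0606 and 0.064, and 1 gene of the list passed when either array was left out. Of 50 genes of the respiratory chain list Ndufs4 and Hccs fell. Hccs attaches heme to cytochrome c and is not itself a part of the chain, and the lists were chosen with earlier results of these data known. Of the 50, 46 were below 0 with a median of -0.17. In glycolysis and glucose use 1 of 30 fell, Fbp2, the muscle form of fructose bisphosphatase, to 0.549 (adjusted p 0.0426), and the list's median was -0.13. Over all 12393 genes the median was 0.02, with 5369 below 0 and 840 lower at an unadjusted p under 0.05 (limma). Of all genes 0.347% were called lower and 0.202% higher.

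Among the largest falls outside these groups was Ces1d, a carboxylesterase that hydrolyses lipids. It read 21.0, 21.8 and 29.1 in NTG and 8.25 to 13.8 in transgenic arrays, and fell to 0.438 (95% interval 0.351 to 0.548, adjusted p 0.00667) on the dimmest of its 3 probe sets. The brighter ones differed by -1.42 and -0.97 and did not pass (adjusted p 0.0591 and 0.165). The cytokine gene Il15 read 323.6, 217.8 and 324.9 in NTG and 94.35 to 163.3 in transgenic arrays, falling to 0.483 (adjusted p 0.0172). Ttll1, a tubulin polyglutamylase, fell to 0.454 (adjusted p 0.0422), Tnfaip8 to 0.533 and Adhfe1, a mitochondrial hydroxyacid transhydrogenase, to 0.537. Msl3, a chromatin protein of the male-specific lethal complex, fell to 0.534 (adjusted p 0.0134). Upk3b, a mesothelial membrane protein, fell to 0.596 (adjusted p 0.0271), while the mesothelial genes Wt1 and Msln differed by 0.16 and -0.22 and did not pass. Other called falls included Hsdl2, Acsl6, Acad11, Slc25a13, Clpx and Mtch2 of mitochondria and peroxisomes, the adenosine kinase Adk, the insulin receptor adaptor Grb14, the phosphorylase kinase subunit Phkg1, Fgf13, Retnla and the proteasome genes Psme1 and Psma1.

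**Figure D4:**
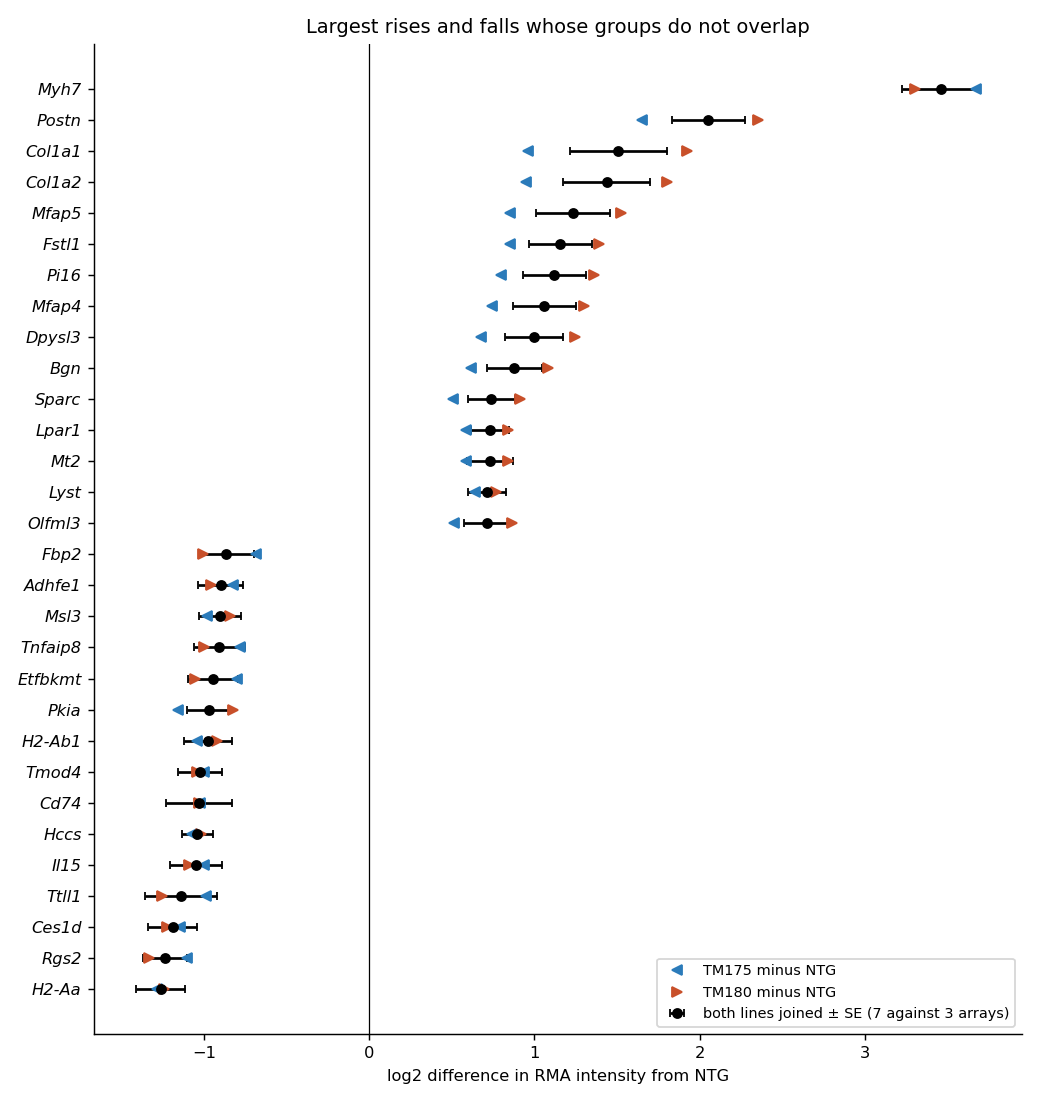
Log2 difference from NTG of called genes without overlap between transgenic and NTG arrays, the 15 highest and the 15 lowest, with the joined estimate of 7 against 3 arrays (black, ± SE) and the values of TM175 and TM180 against the same 3 NTG arrays (triangles). Myh7 stands at 3.46 and H2-Aa at -1.26; the TM180 value lies further out than the TM175 value for 14 of the 15 rises, Myh7 excepted, and the triangles lie close together for most falls.

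Side by side, the lines' own differences had close medians for the falls and were often larger in TM180 for the rises. The falls had a median of -0.72 in TM175 and -0.76 in TM180, and 36 of 71 fell further in TM180. The rises had a median of 0.59 in TM175 and 0.84 in TM180, and 32 of 34 rose further in TM180. The exceptions included Myh7, at 3.67 and 3.30. Tested between the lines with no control array in the contrast, 6 of 22626 probe sets passed in limma (0.0265%). At an unadjusted p under 0.05 there were 5749. Of the 105, 0 were among the 6. The joined fit counts a line difference as spread, so probe sets with a large line difference were less likely to be among the 105. Of the 105, 19 rises and 5 falls had an unadjusted p under 0.05 for the line difference. Col1a1 had the largest, 0.96 ± 0.19 on the log2 scale higher in TM180 (95% interval 0.55 to 1.37), and for Hccs the interval was -0.16 to 0.27. The median 95% interval of a line difference among the 105 reached 0.27 to either side of its estimate.

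**Figure D5:**
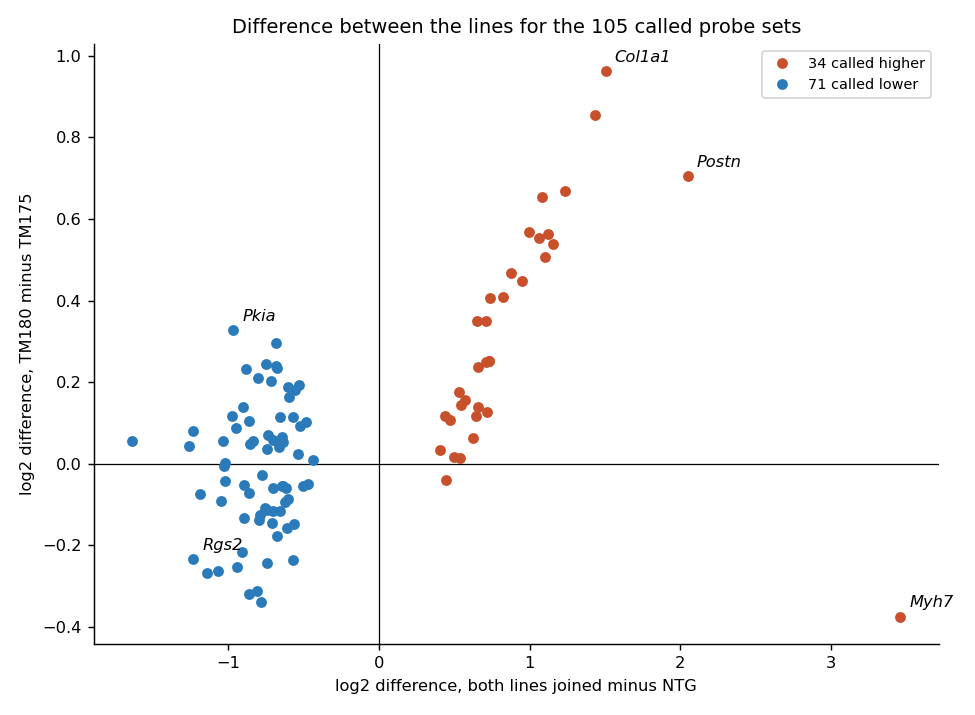
Log2 difference TM180 minus TM175 (vertical) against the joined difference from NTG (horizontal) for the 105 called probe sets. Falls scatter around 0 on the vertical axis with a median of -0.01, whereas 32 of 34 rises lie above 0 with a median of 0.25, and Myh7 lies below.

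The joined difference was also set within extract types. Every one of the 105 had the same direction among the 5 and 2 individual hearts and between the 2 transgenic pools and the NTG pool. The 105 were chosen by a fit over these same arrays, so this agreement is no separate test. The rises had a median of 0.73 among hearts and 0.86 among pools, and the falls -0.70 and -0.76. A test of whether the transgenic difference depended on extract type called 0 of 22626 probe sets in limma (446 at an unadjusted p under 0.05, 8 of them among the 105). Among individual hearts alone 4 probe sets passed, of Myh7, Hccs, H2-Aa and H2-Ab1. A design with only 1 NTG pool gives no test among pools.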

How the data were processed

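The authors deposited a linear RMA intensity for each probe set and array, per the submitters' processing notes; the version was not given in the sources used here. Intensities of 1000 or more carried a point before their last 3 digits and were read back: 7844 of 226900 values in 1057 probe sets. The level of 225 tested probe sets was not settled, which leaves their differences intact. After 64 control probe sets were set aside, log2 intensities of 22626 probe sets were fitted with limma 3.58.1 (R 4.3.3) on transgenic side and extract type, with Benjamini-Hochberg adjustment and a threshold of 0.05. A further model with 1 mean per genotype gave line values. Probe sets numbered 20380 with 1 gene symbol, 691 with several and 1555 with none. Lists, the members named from them and the fixed set used each gene's brightest probe set, settled ones first. The largest rises and falls used the brightest called, non-overlapping one. Genes named for their line difference used the brightest called one. Named genes were a fixed set, the 15 largest rises and falls, up to 4 called members per list, and the called genes with the 5 smallest and 5 largest line differences. Members and lists were chosen with earlier results of these data known. Tested on simulated data for this comparison over 22626 probe sets, the fit called 61.2% of changes of 0.5 (log2), 95.5% of 1 and 100% of 2. It also called 14 unchanged probe sets. The simulated noise was independent between arrays, with the same change in both lines and no array standing apart. These shares may therefore not hold for the real arrays. Tables were handled with pandas 2.3.3 and numpy 2.4.6 in Python 3.11.15 and plots drawn with matplotlib 3.10.9.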

Additional observations from a re-analysis of the deposited data

Results flagged for a closer look

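Among the 53 named genes, 106 checks within the 4 TM180 or the 7 transgenic arrays asked whether 1 array lay far from the rest, and 7 did; chance marks about 1 in 20. The first TM175 heart was far below the other transgenic arrays for Nppa (521.4), Acta1 (733.4) and Eif2s3y (7.234). The second TM180 heart was low for Il15 (94.35) and high for Fn1 (544.3), the latter among the TM180 arrays and among all transgenic arrays. The TM180 pool was high for Xist (393.7) among the TM180 arrays.

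Between the lines 6 genes differed (limma, adjusted p under 0.05), and none was among the joint calls. Higher in TM180 were Tgfb2 by 1.49 on the log2 scale, Rrad by 1.15, St3gal2 by 0.95, Mllt11 by 0.82 and Ddx39a by 0.64, and Alas2 was -0.70 lower. The Tgfb2 value is from a probe set other than that of the TGF-beta list. From NTG that probe set differed by 0.53 in TM175 and 2.02 in TM180. Rrad, a small GTPase that restrains calcium channels, read 455.5, 346.0 and 457.8 in NTG, 239.7, 215.1 and 326.3 in TM175 and 533.2, 633.1, 551.4 and 531.0 in TM180, so the lines lay on opposite sides of the controls. Alas2, which makes heme in red cell precursors, likewise read 178.0 to 206.1 in NTG, 258.8 to 266.9 in TM175 and 153.4 to 174.0 in TM180.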

How the results depend on the processing

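The count of 105 for the joined comparison became 22 without extract type in the model, 4 among individual hearts and 443 with the mean of the lines as contrast, which does not count line differences as spread. Array weights, which gave the NTG pool a weight of 4.50, called 1209, renewed quantile normalization 204, median centring 70 and an adjusted p under 0.01 10. Leaving out 1 array gave 9 to 229: 9 without the first NTG heart, 10 without the NTG pool, 22 without the TM180 pool, 36 without the third TM180 heart, 47 without the TM175 pool and 229 without the first TM175 heart. A fold of at least 1.5, the brighter probe sets, an intensity trend, 1 value per gene and dropping unsettled probe sets gave 85 to 135.

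Deviations of same-numbered arrays had correlations of -0.643 to 0.301. They were taken from genotype and extract means, which builds in negative correlations, so this check cannot exclude pairs. The main fit took the numbers as no pairs. With the replicate block 2 probe sets passed, of Myh7 and Hccs. The 6 calls between the lines became 0 among individual hearts, 0 without extract type and 0 with the replicate block, and 0 to 11 when 1 array was left out. Of 1316 gene values under alternatives 900 stayed the same, 396 lost the call, 6 gained it, 13 moved and 1 reversed. Staying the same meant that direction and side of the threshold were kept. Pools alone gave no p-value, so there it meant lying within the gene's residual SD of the main value, and moving meant lying beyond it. The reversal was Pln without the second NTG heart (0.0038, with -0.11 to 0.0038 over the arrays left out). List medians moved by more than their spread in 14 of 216 cases, 5 of them with 1 of the 2 arrays left out, which were chosen after seeing the data. The cause of these shifts was not tested.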

Other observations

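Fixed-list genes with smaller or no joint response add to the picture. The interferon, proteasome and cytosolic ribosome lists had medians of -0.21, -0.11 and -0.01 with 0 of 28, 0 of 28 and 0 of 25 genes passing (limma; at an unadjusted p under 0.05 6, 1 and 0). Of 30 cell cycle genes Ccnd2 rose, and 27 were above 0 with a median of 0.16 (0 rose without the second NTG heart); Mki67 and Top2a each differed by 0.45 and did not pass. Of 21 immediate early genes 0 passed (limma; 5 at an unadjusted p under 0.05; 1 rose without the second NTG heart), with Egr1 at 0.60 (adjusted p 0.0922) and Egr2 at 0.44 (adjusted p 0.064). Heat shock genes had a median of -0.02, with 0 of 20 passing.

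Some called falls neighbour each other in the genome. H2-Aa and H2-Ab1 are adjacent on chromosome 17, while H2-Eb1 beside them differed by -0.03 and Tap2 on the other side by -0.19, neither called. Msl3 and Hccs, both lower in transgenic ventricle by -0.90 and -1.04, lie on the X chromosome with 2 genes between them, Arhgap6 and Amelx, whose probe sets differed by -0.21 to 0.14. Prps2, on the far side of Msl3, differed by -0.41 (adjusted p 0.0829) and Mid1, beyond Hccs, by 0.05. These positions were looked up after the calls were known, and their part in the falls was not tested.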
